A study of Mus musculus with 6 samples.

Results

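To examine how histone supply and deposition genes behaved when KANSL1 was removed, transcript levels of 10 histone chaperone genes were compared between WT and Kansl1 KO primary mouse embryonic fibroblasts (MEFs). KANSL1 is a scaffold subunit of the NSL complex, a chromatin-modifying complex that binds gene promoters. The genes were Asf1a, Asf1b, Chaf1a, Chaf1b, Nasp, Hat1, Hira, Daxx, Atrx and Hjurp. They were taken by name from the 26898 genes of the expression table. Of these, 9 were found by their symbol and Hjurp by its gene identifier, because the table lists it under its older name A730008H23Rik. The group was chosen by the fall of Asf1b in the same contrast, so the change of Asf1b is described below without a test, and the changes of the other genes were also known when the list was drawn up.

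Both groups were C57BL/6 MEFs at passage 3, cultured with 10% serum per the labels (the general methods for MEFs give a higher content), homozygous for a Kansl1 gene flanked by recombination sites (Kansl1 fl/fl) and exposed to 1 μM tamoxifen for 48 h. The KO cells also carried CAG-cre, a broadly expressed Cre recombinase that tamoxifen activates, and the WT cells did not. A KO sample therefore differed from a WT sample in Cre as well as in Kansl1, and the effects of the 2 cannot be told apart here. There were 3 WT samples (WT 4, WT 5 and WT 8) and 3 KO samples (KO 3, KO 7 and KO 10). A figure caption of the study counts them as 3 mice in each group.

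Histone chaperones bind histones that are not yet in a nucleosome, shield their charge and hand them on to DNA. In the replication-coupled route, newly made H3 and H4 histones pass from ASF1 to chromatin assembly factor 1 (CAF-1), which is tethered to the sliding clamp at the replication fork and builds nucleosomes behind it. In the replication-independent route, HIRA places the variant H3.3 in active genes, and DAXX with ATRX places it at telomeres and in repeat-rich heterochromatin. HJURP is dedicated to the centromeric histone CENP-A. Dividing fibroblasts need the first route in each S phase, whereas the second also works in cells that do not divide.

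Libraries were checked before the chaperones were read. Reads recovered from the table amounted to 17655495 in KO 3, the shallowest library, and to between 22812595 and 27718259 in the other 5. Expression is given as TPM, a read count corrected for the length of the gene and for the total of the sample. Kansl1 itself was at 28.5, 26.7 and 24.4 TPM in WT 4, WT 5 and WT 8 and at 13.7, 15.8 and 14.4 TPM in KO 3, KO 7 and KO 10. Its mean RNA level in KO was 55.1% of that in WT (log2 fold change -0.82, adjusted p = 0.000859 by limma on log2(TPM + 1), with Benjamini-Hochberg adjustment over all tested genes). The reads counted may lie outside the deleted part of the gene, which was not examined here. Nor was the share of KO cells in which the gene had been deleted. Fibroblast markers summed to between 10276.5 and 14856.5 TPM in the 6 samples. A set of 10 macrophage markers summed to 36.9 to 42.1 TPM in WT and to 77.9 to 155.9 TPM in KO. Most of this sum was Lyz2, at 23.8, 20.6 and 23.1 TPM in WT 4, WT 5 and WT 8. In KO 3, KO 7 and KO 10 Lyz2 was at 53.1, 57.0 and 110.8 TPM. Cd14 overlapped between the groups, with means of 6.04 TPM in WT and 6.45 TPM in KO. Of 8 tested markers, 7 had all KO samples above all WT samples, beside 13.3% of all tested genes, and 1 was called higher (Lyz2), beside 1.64%. Among the 7, Adgre1 (mean 0.753 TPM in WT and 2.05 TPM in KO) and Mrc1 (0.486 and 1.79 TPM) were tested only because of their KO level. That filter favours such a count, which is therefore a description. Ptprc and Aif1 stayed under 1 TPM in every sample, while Csf1r was at 1.41 TPM in WT and 3.39 TPM in KO on average, and Tyrobp at 1.49 and 4.41 TPM. The part of such cells in the chaperone values was not tested.

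Asf1b, which encodes the ASF1 paralog tied to proliferating cells, showed the largest fall of the 10 genes. It lies at chr8:83955507-83970197 on the plus strand (mm10). It was at 35.7, 30.3 and 28.1 TPM in WT 4, WT 5 and WT 8 and at 4.76, 9.09 and 7.62 TPM in KO 3, KO 7 and KO 10. Every KO sample lay far below every WT sample. Mean expression was 31.4 ± 3.90 TPM in WT and 7.16 ± 2.20 TPM in KO (SD, n = 3 each), or 22.8% of the WT level. On the log2(TPM + 1) scale the difference was -2.02 with a standard error of 0.20. Ranked by this difference, it was number 16 from the bottom among the 14799 genes tested, which are those whose WT or KO mean reached 1 TPM. The values rest on 676, 621 and 623 recovered reads in WT 4, WT 5 and WT 8 and on 81, 206 and 159 reads in KO 3, KO 7 and KO 10. No stretch of 50 bases of its transcripts was shared exactly with another annotated gene. In bulk RNA, fewer cells that express a gene and less RNA per cell cannot be told apart, which holds for each chaperone below.

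Asf1a, the other ASF1 paralog, serves both deposition routes and is less tied to cell division. It was at 6.89, 6.33 and 5.19 TPM in WT 4, WT 5 and WT 8 and at 5.37, 5.65 and 5.42 TPM in KO 3, KO 7 and KO 10. The groups overlapped, and the 3 KO values all lay within the WT range. The log2 fold change was -0.13 with a standard error of 0.13 (limma adjusted p = 0.495). Asf1b made up 83.8%, 82.7% and 84.4% of the summed TPM of both paralogs in WT 4, WT 5 and WT 8, and 47.0%, 61.7% and 58.4% in KO 3, KO 7 and KO 10. The ratio of Asf1b to Asf1a went from 5.13 ± 0.320 (SD, n = 3) in WT to 1.30 ± 0.373 (SD, n = 3) in KO, and in KO 3 Asf1a exceeded Asf1b. This shift is a description, because Asf1b was chosen by its fall. The Asf1a values carry an uncertainty of annotation, since 48.05% of its exon length overlaps the gene Mcm9 on the opposite strand and the library kit named in the methods does not mark strand. Mcm9, a helicase gene, was at 2.59 ± 0.141 TPM in WT and 1.48 ± 0.294 TPM in KO (SD, n = 3 each).

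The promoter windows of Asf1b and Asf1a are shown because these paralogs moved so differently. Those of Nasp and Atrx are further windows in which the letters sought occurred several times. The windows of the other chaperones are not printed, and their letters are given below. Each window runs from 250 bases before to 50 bases after the start annotated by RefSeq in GRCm38.p6, written 5′ to 3′ along the gene's strand. Capitals mark CCAAT, the letters bound by the factor NF-Y (read as ATTGG when on the opposite strand), and TTTGAA, the letters of the cell cycle homology region (CHR) known from promoters of genes that peak late in the cell cycle. The Asf1b window is chr8:83955444-83955743 (plus strand), the Asf1a window chr10:53596711-53597010 (plus strand), the Nasp window chr4:116627902-116628201 (minus strand) and the Atrx window chrX:105929323-105929622 (minus strand).
Asf1b: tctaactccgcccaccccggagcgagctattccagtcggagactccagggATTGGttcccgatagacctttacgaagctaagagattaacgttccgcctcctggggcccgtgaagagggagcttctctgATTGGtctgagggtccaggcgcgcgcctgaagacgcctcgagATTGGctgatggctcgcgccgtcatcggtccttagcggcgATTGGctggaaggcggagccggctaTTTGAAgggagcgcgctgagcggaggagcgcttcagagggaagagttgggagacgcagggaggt
Asf1a: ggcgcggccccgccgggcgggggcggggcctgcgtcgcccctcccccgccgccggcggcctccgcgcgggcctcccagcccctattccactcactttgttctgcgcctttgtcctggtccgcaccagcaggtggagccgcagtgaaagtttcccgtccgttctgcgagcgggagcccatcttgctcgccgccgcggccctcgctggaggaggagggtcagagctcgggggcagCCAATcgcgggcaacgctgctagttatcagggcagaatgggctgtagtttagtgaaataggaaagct
Nasp: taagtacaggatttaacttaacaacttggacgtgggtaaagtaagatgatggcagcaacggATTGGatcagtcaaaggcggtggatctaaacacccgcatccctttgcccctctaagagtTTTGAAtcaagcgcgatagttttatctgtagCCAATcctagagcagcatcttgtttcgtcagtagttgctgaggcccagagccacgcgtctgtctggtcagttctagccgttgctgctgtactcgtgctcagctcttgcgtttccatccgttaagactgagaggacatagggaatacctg
Atrx: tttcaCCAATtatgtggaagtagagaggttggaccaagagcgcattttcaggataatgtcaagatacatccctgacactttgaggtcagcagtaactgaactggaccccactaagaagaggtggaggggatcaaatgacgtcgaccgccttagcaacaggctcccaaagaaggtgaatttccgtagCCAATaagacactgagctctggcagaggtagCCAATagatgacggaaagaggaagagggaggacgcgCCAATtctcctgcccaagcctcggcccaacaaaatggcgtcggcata

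The Asf1b window held CCAAT 4 times, each on the strand opposite to the gene, with the first letters at 200, 121, 79 and 39 bases before the RefSeq start, and TTTGAA once, from 14 to 9 bases before it. Asf1a held CCAAT once and no TTTGAA. Among all 32544 RefSeq windows of this length, 37.4% held CCAAT at least once on either strand, 1.06% held it at least 4 times and 17.8% held TTTGAA. Atrx, whose expression is given below and overlapped between the groups, also held CCAAT 4 times, all on its own strand. The windows of Nasp and Hjurp held both kinds of letters, with TTTGAA 130 bases before the start of Nasp and 19 bases after the start of Hjurp. Chaf1a, Hat1 and Daxx held CCAAT once, Daxx in 1 of 3 annotated windows, and Chaf1b and Hira held neither. The E2F letters TTTCCCGC, TTTGGCGC, TTTCGCGC and TTTGCCGC, searched on both strands, were in none of the 10 genes' windows and in 2.28% of all windows. Other forms of E2F letters were not searched, so their absence is not shown. The start of Asf1b in GENCODE lies 187 bases before that of RefSeq, and that of Asf1a 204 bases before, so the distances depend on the annotation. These matches describe letters and not binding.

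**Figure D1:**
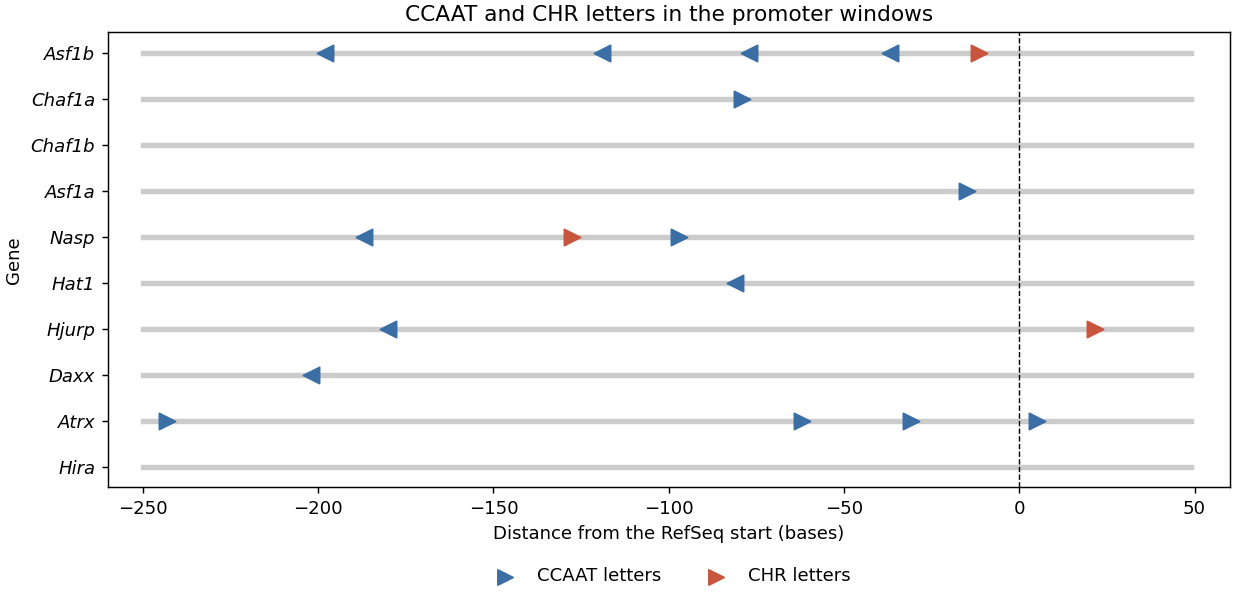
Positions of CCAAT (blue) and TTTGAA (CHR, red) in the promoter windows of the 10 chaperone genes, in bases from the RefSeq start (dashed line), with each triangle pointing along the strand that holds the letters and, for Daxx, the first of 3 windows drawn. Asf1b and Atrx each show 4 CCAAT matches, and Chaf1b and Hira show none.

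CAF-1 takes histones from ASF1, and its large subunits are encoded by Chaf1a and Chaf1b. Chaf1a was at 11.8, 13.7 and 11.3 TPM in WT 4, WT 5 and WT 8 and at 7.19, 10.2 and 7.99 TPM in KO 3, KO 7 and KO 10. Chaf1b was at 10.9, 10.8 and 9.87 TPM in the WT samples and at 5.32, 7.83 and 6.96 TPM in the KO samples, in the same order. For both genes every KO sample lay below every WT sample. Chaf1a had a log2 fold change of -0.50 (SE 0.15, limma adjusted p = 0.0309) and Chaf1b of -0.59 (SE 0.14, limma adjusted p = 0.0141). Neither was called, as calls needed an adjusted p under 0.005 and a log2 fold change beyond 0.5. The ratio of Chaf1a to Chaf1b was 1.17 ± 0.0939 in WT and 1.27 ± 0.108 in KO (SD, n = 3 each), and its ranges overlapped. Of the Chaf1a exon length, 52.5% overlaps Ubxn6 on the opposite strand, and Ubxn6 was at 3.78 ± 0.434 TPM in WT and 4.06 ± 0.283 TPM in KO. With voom on the recovered reads both subunits passed, with adjusted p = 0.00266 for Chaf1a and 0.000907 for Chaf1b. Chaf1b also passed with median-of-ratios scaling (log2 fold change -0.51, limma adjusted p = 0.00365), and Chaf1a did not (limma adjusted p = 0.0138).

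Nasp and Hat1 act before deposition. NASP keeps a soluble reserve of H3 and H4 histones and protects it from degradation. Nasp was at 31.0, 28.4 and 24.7 TPM in WT 4, WT 5 and WT 8 and at 15.1, 21.9 and 21 TPM in KO 3, KO 7 and KO 10. The groups did not overlap, the log2 fold change was -0.52 with a standard error of 0.15, and the gene did not pass the threshold (limma adjusted p = 0.0301). It passed with voom (adjusted p = 0.00165) and among genes with a mean of 10 TPM or more (limma adjusted p = 0.00246).

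HAT1 acetylates newly made H4 before its deposition. Hat1 was at 50.3, 41.8 and 38.2 TPM in WT 4, WT 5 and WT 8 and at 20.7, 27.4 and 26.0 TPM in KO 3, KO 7 and KO 10. All KO samples lay below all WT samples. Mean expression was 43.4 ± 6.19 TPM in WT and 24.7 ± 3.53 TPM in KO (SD, n = 3 each). It fell by 0.79 on the log2 scale and passed the threshold (SE 0.14, limma adjusted p = 0.00309). Next to Asf1b it had the largest change of the 10 genes. No stretch of 50 bases of Hat1 was shared exactly with another gene.

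Hjurp had the highest level of the 10 genes in both groups. It was at 64.1, 66.2 and 62.3 TPM in WT 4, WT 5 and WT 8 and at 34.0, 49.4 and 47.5 TPM in KO 3, KO 7 and KO 10. The WT samples lay close together, and every KO sample was lower. The log2 fold change was -0.56 with a standard error of 0.14, and the gene did not pass the threshold (limma adjusted p = 0.0153). It passed with voom (adjusted p = 0.000993) and among genes with a mean of 10 TPM or more (limma adjusted p = 0.000545).

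Of the 3 replication-independent chaperone genes, Daxx fell and the groups overlapped for Atrx and Hira. Daxx was at 26.7, 29.2 and 26.3 TPM in WT 4, WT 5 and WT 8 and at 15.5, 19.8 and 17.7 TPM in KO 3, KO 7 and KO 10. All KO samples were below all WT samples, and it fell by 0.61 on the log2 scale, past the threshold (SE 0.12, limma adjusted p = 0.00458). Atrx, the chromatin remodeller that works with DAXX, was at 22.4, 20.1 and 17.9 TPM in the WT samples and at 19.0, 23.8 and 21.7 TPM in the KO samples. Its groups overlapped, with a log2 fold change of 0.09 (SE 0.13, limma adjusted p = 0.626). The difference between the changes of these partners was not tested.

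Hira, which encodes the H3.3 chaperone of active genes, had the lowest level of the 10. It was at 2.94, 3.16 and 2.83 TPM in WT 4, WT 5 and WT 8 and at 2.26, 3.77 and 3.28 TPM in KO 3, KO 7 and KO 10. The groups overlapped and the WT samples lay inside the KO range. The log2 fold change was 0.03 with a standard error of 0.17 (limma adjusted p = 0.924), and it changed sign when KO 7 (-0.09) or KO 10 (-0.01) was left out. Of the Hira exon length, 44.7% overlaps another gene model on the same strand.

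**Figure D2:**
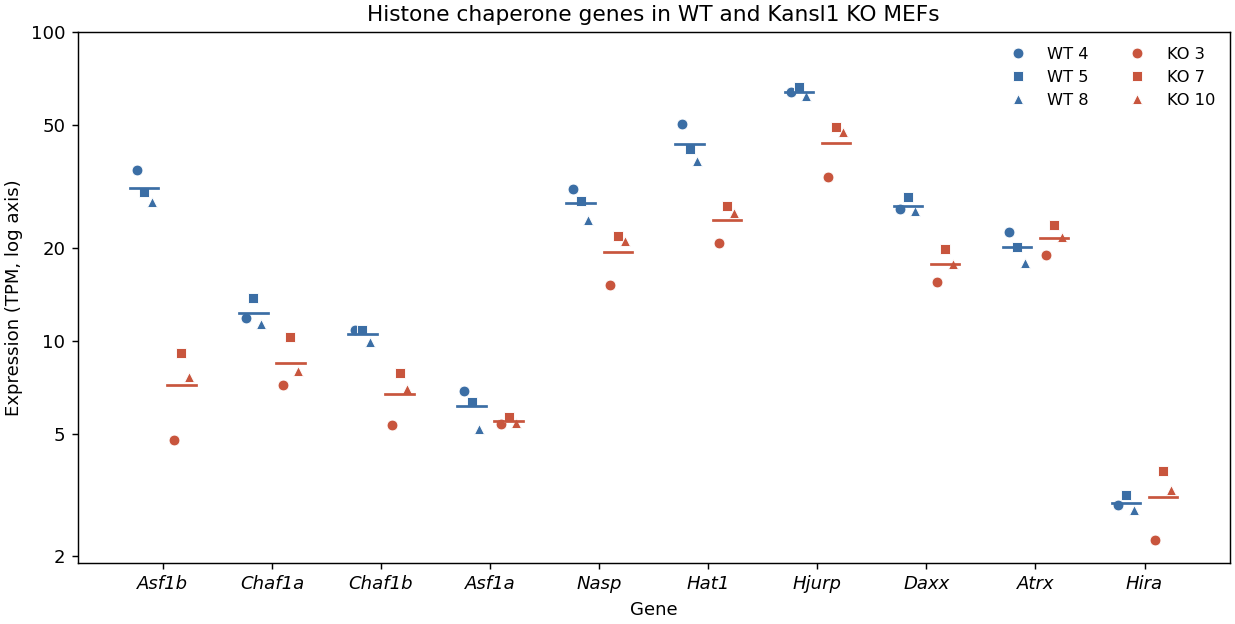
Expression (TPM, log axis) of the 10 chaperone genes in the 3 WT samples (blue) and 3 KO samples (red), with a bar at each group mean. The KO points lie below the WT points for Asf1b, Chaf1a, Chaf1b, Nasp, Hat1, Hjurp and Daxx, and the groups overlap for Asf1a, Atrx and Hira.

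Of the 9 genes other than Asf1b, 2 were called lower in KO with limma (Hat1 and Daxx), beside 9.03% of the 14799 tested genes. None of the 10 was called higher, beside 1.64% of tested genes, and none was higher at an unadjusted p under 0.05 or with voom. At an adjusted p under 0.05 with the same log2 limit, 5 of the 9 were lower, beside 16.6% of tested genes. In 6 of the 9 every KO sample lay below every WT sample, beside 29.9% of tested genes. The median log2 fold change of the 9 was -0.52, beside -0.07 for all tested genes. These counts describe genes that were listed with their values known. The calls of Hat1 and Daxx were close to the threshold. Without WT 8 Hat1 alone of the 9 was called, and without WT 4, WT 5, KO 3, KO 7 or KO 10 neither was. Leaving out 1 sample also lowered the count over all tested genes, from 1337 lower to between 617 and 938. The limma adjusted p without 1 sample was between 0.00472 (without WT 8) and 0.0113 for Hat1 and between 0.00553 and 0.0226 for Daxx.

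The contrast of deposition routes was described from group means. Averaged over Asf1b, Chaf1a and Chaf1b, the mean log2(TPM + 1) level lay above that of Hira, Daxx and Atrx by 0.35 ± 0.02 (SD, n = 3) in WT and below it by 0.52 ± 0.09 (SD, n = 3) in KO. The shift between the groups was -0.87, and it includes Asf1b, which was chosen by its fall. With Chaf1a and Chaf1b alone, the level relative to Hira, Daxx and Atrx went from -0.11 ± 0.04 in WT to -0.49 ± 0.05 in KO (SD, n = 3 each), a shift of -0.38. Daxx, in the replication-independent group, had a log2 fold change of -0.61, beside -0.50 for Chaf1a and -0.59 for Chaf1b. The shift of -0.38 therefore rests on Atrx (0.09) and Hira (0.03), whose groups overlapped, and does not hold against Daxx. The split was also proposed with these values known, so no test was made.

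**Figure D3:**
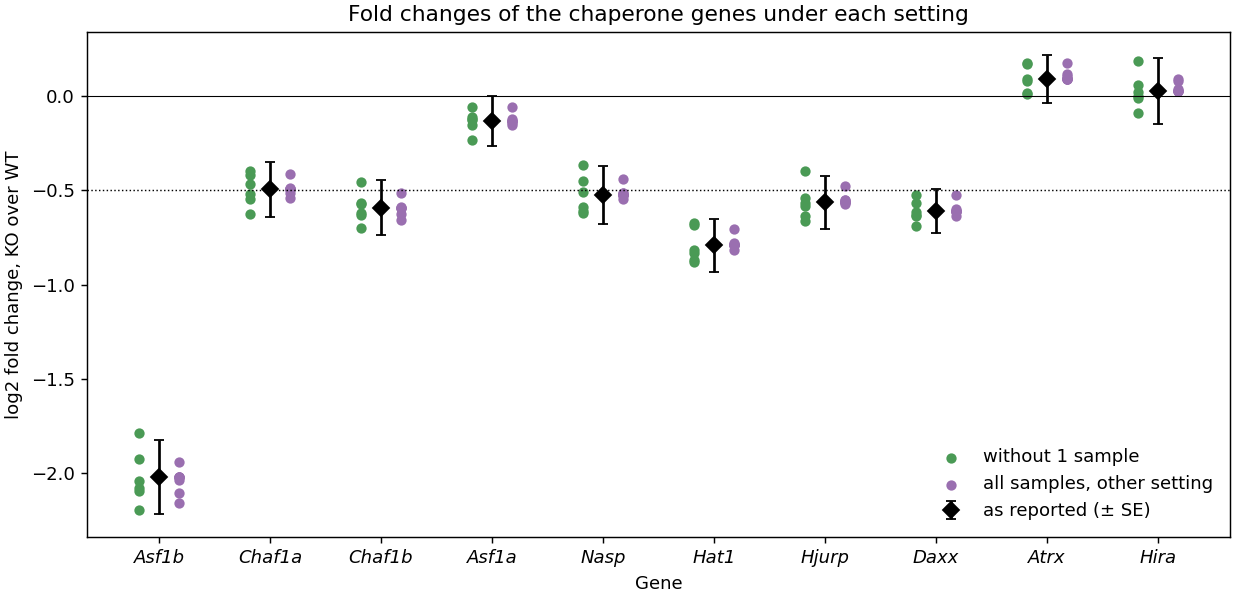
Log2 fold change (KO over WT) of each chaperone gene as reported (black diamonds, bars ± standard error), with 1 sample left out (green) and with all samples under another processing setting (purple), and a dotted line at -0.5. Asf1b stays between -2.19 and -1.79, Hat1 between -0.88 and -0.67, and Hira lies on both sides of 0.

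The order of the levels within a group also differed. TPM divides by the merged exon length, which for Atrx is 21757 bases, so genes with many alternative exons are understated in this order. In WT, Hjurp led at 64.2 ± 1.97 TPM, followed by Hat1, Asf1b, Nasp, Daxx, Atrx, Chaf1a, Chaf1b, Asf1a and Hira. The sample ranges of Asf1b and Nasp overlapped there, as did those of Nasp and Daxx, and the other neighbours were apart. In KO the order was Hjurp at 43.6 ± 8.37 TPM, Hat1, Atrx, Nasp, Daxx, Chaf1a, Asf1b, Chaf1b, Asf1a and Hira. Here the ranges from Hat1 to Daxx overlapped between neighbours, and so did those from Chaf1a to Asf1a. Asf1b thus moved from the upper genes in WT to the level of CAF-1 and Asf1a in KO.

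Within the groups, the samples kept much the same order across the chaperones. KO 3 was the lowest and KO 7 the highest KO sample for all 10 genes, and WT 8 was the lowest WT sample for all 10. Over all tested genes, KO 3 was the lowest KO sample for 76.2%, KO 7 the highest for 68.6% and WT 8 the lowest WT sample for 62.1%. The short RNA Gm23935 took 25.6% of TPM in KO 3, 19.9% in KO 10 and 15.5% in KO 7, and 15.5%, 18.3% and 24.3% in WT 4, WT 5 and WT 8. Among the KO samples its share ran opposite to the order of the chaperones, highest in KO 3 and lowest in KO 7. Among the WT samples it was highest in WT 8, where the chaperones were lowest, while the order of WT 4 and WT 5 varied between chaperones. Its part in that order was not tested. With this RNA removed from the totals, an alternative chosen after seeing the data, Chaf1b was called lower as well (limma adjusted p = 0.00443).

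Over the 6 samples, the pattern of Asf1b was closest to that of Prxl2b (Pearson r = 0.9998), Sec11c (0.9995), D6Wsu163e (0.9995), Zfp950 (0.9994) and Slc35a4 (0.9992). In all, 2183 tested genes reached r = 0.95. Among the chaperones, r with Asf1b was 0.983 for Hat1, 0.980 for Daxx, 0.974 for Chaf1b, 0.949 for Hjurp, 0.930 for Nasp, 0.913 for Chaf1a, 0.616 for Asf1a, 0.147 for Hira and -0.11 for Atrx. These are descriptions over samples that share the group difference and the order of totals given above.

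Direct partners of the chaperones were read next, from a list of 16. Of these, 3 were called lower (Oip5, Mis18a and Tonsl), beside 9.03% of all tested genes, 7 had all KO samples below all WT samples, beside 29.9%, and the median log2 fold change was -0.22. The centromere branch held the largest values. The MIS18 proteins mark the centromere for HJURP, and Oip5 (encoding MIS18 beta) was at 7.43, 5.77 and 6.70 TPM in WT 4, WT 5 and WT 8 and at 1.01, 1.92 and 1.83 TPM in KO 3, KO 7 and KO 10. It fell by 1.58 on the log2 scale (SE 0.18, limma adjusted p = 0.000487). Mis18a was at 15.1, 15.7 and 12.9 TPM in the WT samples and at 5.52, 5.55 and 6.38 TPM in the KO samples, and it fell by 1.19 (SE 0.12, limma adjusted p = 0.000334). In both genes the groups were far apart. Cenpa, the gene of the histone carried by HJURP, missed the threshold (log2 fold change -0.68, limma adjusted p = 0.00779), although its KO samples all lay below WT. Tonsl, which reads new histones at the fork, fell by 1.11 (SE 0.15, limma adjusted p = 0.000786).

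The other partners gave smaller values. Rbbp4, which encodes the third CAF-1 subunit and also serves other complexes, had a log2 fold change of 0.06 (limma adjusted p = 0.704) and its paralog Rbbp7, a partner of HAT1, of -0.25 (limma adjusted p = 0.145). In the HIRA complex, Ubn1 had 0.35 (limma adjusted p = 0.0786) and Cabin1 -0.30 (limma adjusted p = 0.105). The kinases that phosphorylate ASF1, Tlk1 and Tlk2, had 0.23 (limma adjusted p = 0.184) and -0.09 (limma adjusted p = 0.629). Apart from Cabin1, the groups of these genes overlapped. H3f3a and H3f3b, the genes of H3.3, had log2 fold changes of 0.27 (limma adjusted p = 0.129) and 0.13 (limma adjusted p = 0.428), and were picked for their role with their values known.

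A further list held chaperones outside these routes. Of its 18 genes, which serve transcription, H2A-H2B exchange and ribosome assembly among other tasks, 1 was called lower, beside 9.03% of all tested genes, and 1 higher, beside 1.64%, and the median log2 fold change was -0.14. Aplf, a histone chaperone of DNA break repair, was at 3.87 ± 0.331 TPM in WT and 0.896 ± 0.125 TPM in KO (SD, n = 3 each). It was the gene called lower, but it entered the test only through its WT level. Its log2 fold change of -1.36 (SE 0.16) and its call are therefore descriptions. Tspyl2, a nucleosome assembly protein relative, rose by 0.59 (SE 0.10, limma adjusted p = 0.00284), with 42.5 ± 2.19 TPM in WT and 64.4 ± 5.26 TPM in KO. Of 9 histone variant genes, 2 were called lower and had all KO samples below all WT samples, beside 9.03% and 29.9% of all tested genes. They were the linker histone gene H1f0 (-0.94, limma adjusted p = 0.00203) and the macroH2A gene H2afy2 (-0.73, limma adjusted p = 0.00279). Without WT 5 neither was called, and without KO 3, KO 10, WT 4 or WT 8 the count was 1. Over all tested genes, leaving out 1 sample gave 617 to 938 genes lower, where the reported fit gave 1337.

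Genes of the replication fork and of mitosis were counted from lists of their own. Of 36 listed fork genes 35 were tested, of which 15 were called lower, beside 9.03% of all tested genes, 31 had all KO samples below all WT samples, beside 29.9%, and the median log2 fold change was -0.72. The largest falls among the called genes were those of Rfc4 (-1.18, limma adjusted p = 0.000439), a subunit of the loader of the sliding clamp to which CAF-1 binds, Prim1 (-1.15, limma adjusted p = 0.000689), the primase, Cdc6 (-1.12, limma adjusted p = 0.00138), which licenses origins, and Gins3 (-1.09, limma adjusted p = 0.00233), a helicase cofactor. Of 20 genes of mitosis and proliferation, 11 were called lower and all 20 had every KO sample below every WT sample, beside the same shares of all tested genes, with a median of -0.76. The largest falls among the called genes were those of Bub1 (-1.23, limma adjusted p = 0.000934), Ccnb2 (-1.02, limma adjusted p = 0.000689), Ccna2 (-0.94, limma adjusted p = 0.00188) and Mki67 (-0.91, limma adjusted p = 0.00285). The median of the 9 chaperones other than Asf1b, -0.52, lay between that of all tested genes and those of these lists. The fall of Asf1b lay beyond every fork and mitosis gene listed, but Asf1b was chosen by its fall, so this comparison is a description. What part of the chaperone values a different share of dividing cells makes up was not tested. The list counts depended on single samples, falling for the fork genes to 9 without WT 4 and 5 without WT 5, and for the mitosis genes to 4 without WT 4 or KO 3, 2 without WT 5, 5 without KO 7 and 6 without KO 10. The count over all tested genes fell as well, from 1337 lower to 829 without WT 4 and 617 without WT 5. It was 654 without KO 3, 938 without KO 7 and 786 without KO 10.

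**Figure D4:**
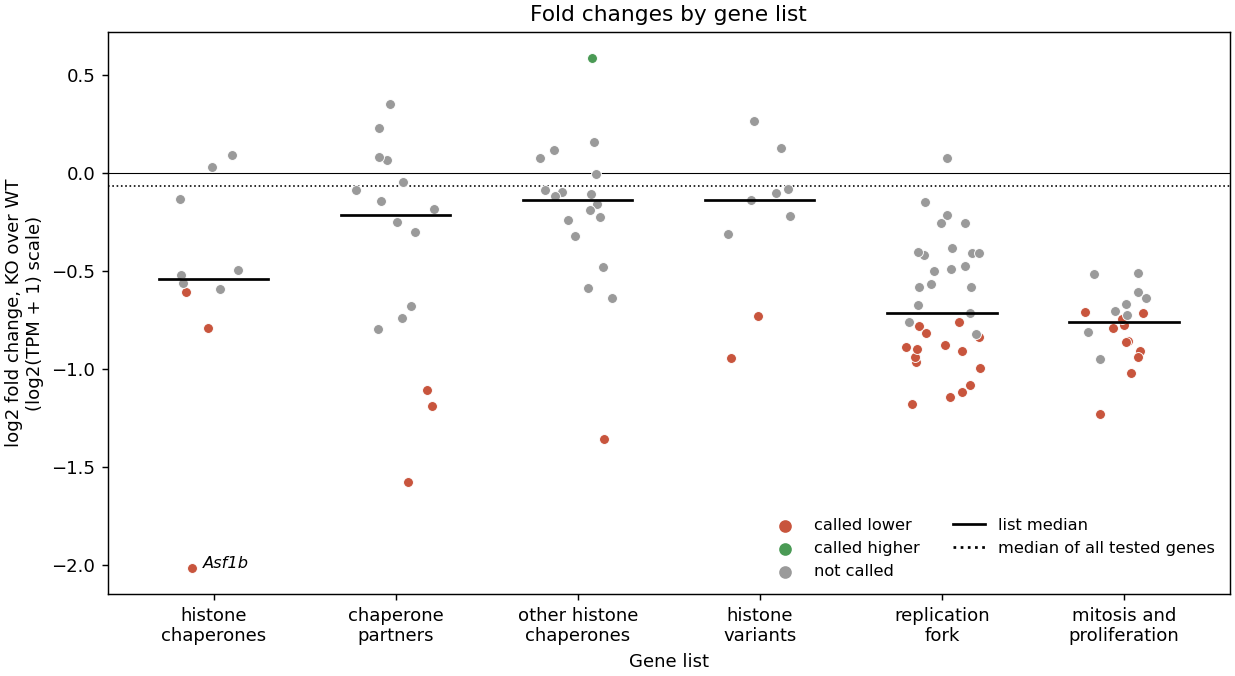
Log2 fold change (KO over WT, log2(TPM + 1) scale) of each tested gene in 6 lists, with points coloured by call, a bar at each list median and a dotted line at the median of all tested genes (-0.07). Asf1b, chosen by its fall, is the lowest point at -2.02, and the list medians of the fork and mitosis genes are -0.72 and -0.76.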

How the data were processed

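Total RNA from 3 WT and 3 KO MEF samples was sequenced on an Illumina NovaSeq instrument. According to the study's methods, the authors aligned reads to mm10 with STAR, whereas the submitters' processing notes list Bowtie 0.12.2. The program and strand setting used for counting are not given in the sources used here. The authors deposited TPM values (reads per gene divided by gene length and scaled to 1000000 per sample), together with a log2 fold change and an adjusted p-value of their own for each gene, which were not used. TPM multiplied by the merged exon length in GENCODE M21 gave whole multiples of 1 read for 100% of the 20034 to 20637 values checked per sample (tolerance 0.05). The recovered reads describe depth, 17655495 to 27718259 per sample, and serve 1 alternative.

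The authors tested genes with DESeq2. Because the deposited unit is TPM, limma 3.58.1 (R 4.3.3) with a variance trend was fitted on log2(TPM + 1) to the 14799 genes with a group mean of at least 1 TPM, with no covariate. This scale understates changes of low genes. P-values were adjusted over these genes by Benjamini-Hochberg, and calls used the study's thresholds, 0.005 and a log2 change beyond 0.5. The fit was tested on simulated reads, with the spread between samples set by a dispersion of 0.01. With no change simulated, 0 genes were called. Of 200 genes changed by 1 on the log2 scale, 40.5% were recovered, and 63.3% of those at 5 TPM or more. At a change of 2, 80.5% were recovered. Each of these 2 runs also gave 5 wrong calls. Smaller changes were not simulated. Alternatives were a pseudocount of 0.1, all genes, a mean of at least 10 TPM, median-of-ratios scaling, voom on the recovered reads, no variance trend, an adjusted p of 0.05 and leaving out each sample.

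The members and lists were chosen with earlier results of these data known. Genes named are the 10 chaperones, Kansl1, up to 4 called genes per direction and list, direct partners of the chaperones (1 of which is not reported here) and the 5 genes most like Asf1b. Lists of endothelial, epithelial, neural and skeletal muscle markers were also checked. Their summed TPM was at most 5.57, 12.0, 97.3 and 108.4 in any sample, and 0 of their tested genes were called in either direction by limma or voom, with 2 of them higher at an unadjusted p under 0.05. Promoter sequences came from RefSeq (GRCm38.p6), where all 10 chaperones matched by symbol. Protein sequences were not compared here.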

Additional observations from a re-analysis of the deposited data

How the results depend on the processing

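No paired analysis was possible because no replicate number occurs in both groups (WT 4, 5 and 8, KO 3, 7 and 10). With 3 samples a group, the calls depended on the settings while directions mostly held, and the cause was not tested except that all-gene testing adds genes and leave-outs remove samples. Chaperone counts here include Asf1b, which was chosen by its fall. Testing all genes gave 286 genes lower and 55 higher, and 1 chaperone, 1 partner, 1 fork gene, 0 mitosis genes and 0 variants lower with limma, where 20 mitosis genes and 3 variants were lower at an unadjusted p under 0.05 in the reported fit and 2 variants with voom. Voom gave 2152 lower and 433 higher, with 7 chaperones, 6 partners, 3 other chaperones and 19 mitosis genes lower. An adjusted p of 0.05 gave 2453 lower and 694 higher, with 6 chaperones, 6 partners, 3 other chaperones, 23 fork genes and 20 mitosis genes lower. Requiring 10 TPM gave 941 of 7747 tested genes lower and 289 higher. Lower there were 5 chaperones, 2 other chaperones and 19 mitosis genes, with no value for Asf1a, Chaf1b, Hira or the difference between routes. Median-of-ratios scaling gave 1497 genes lower and 442 higher, with 4 chaperones, 5 partners and 18 mitosis genes lower. It moved the median of all genes from -0.07 to 0.01. Removing the most abundant RNA, an alternative chosen after seeing the data, gave 1740 of 15490 tested genes lower and 304 higher. Lower there were 4 chaperones, 5 partners, 2 other chaperones and 19 mitosis genes. Without the variance trend 1149 genes were lower and 187 higher, with 1 chaperone, 9 fork genes, 2 mitosis genes and 0 variants lower. The difference between routes was -0.95 with a pseudocount of 0.1 and -0.94 with voom. Leaving out single samples gave 617 to 938 genes lower and 84 to 252 higher, 1 to 2 chaperones, 5 to 11 fork genes, 2 to 11 mitosis genes and 0 to 2 variants lower. The log2 fold change of Hira reversed to -0.01 without KO 10 and to -0.090 without KO 7, in a range of -0.090 to 0.185 over single samples left out. Hat1 and Daxx missed the threshold with all genes (adjusted p = 0.0156 and 0.0148) and without the trend (0.00824 and 0.0101).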
